A study of Homo sapiens with 15 samples.

Results

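IL4I1, NUP62, SP1 and SP3 are 4 of the 19143 genes in a table of RNA sequencing read counts from the established liver cancer line MHCC-97H, which is of human hepatocellular origin. They were taken by symbol and read in every one of 15 libraries. The series title places SP1 and IL4I1 on one axis with the receptor AHR, NUP62 shares exons with IL4I1, and SP3 binds the same motif as SP1. The libraries come from 5 groups of 3: cells grown in an animal model, in a 3D model and in a 2D model, which make up experiment 1, and heat-stressed and untreated 3D cells, here 3D heat and 3D control, which were sequenced as an additional round and make up experiment 2. No group carries a transgene or knockout per the labels, all 15 use the same cell line, and the host animal, the temperature and the time of heating are not given in the sources used here. The labels call the replicates biological without saying that they are separate cultures or animals, so p-values here speak of library-to-library spread, which may be technical.

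IL4I1 is a secreted flavoenzyme that oxidises aromatic amino acids, phenylalanine above all, and its tryptophan product gives rise to ligands of AHR. It is best known from macrophages, dendritic cells and B cells, where interleukin-4, interferon and NF-kB signals induce it, and from tumours. NUP62 is a nucleoporin with phenylalanine-glycine repeats that lines the central channel of the nuclear pore, through which proteins and RNA pass. SP1 and SP3 are zinc finger transcription factors that bind the same GC boxes in promoters, SP1 mostly as an activator and SP3 as an activator or a repressor.

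Libraries held between 12605539 and 18634295 counts. Heat replicate 1 and 3D replicates 1 and 2 stood apart: in these 3, gene level followed the GC content of the transcript, with a Spearman rho across genes of 0.597 to 0.797 between GC content and the library's log2 difference from the 2D mean, against -0.195 to 0.228 in the other 12. The longest coding transcript has a GC content of 61.0% in IL4I1, 58.4% in NUP62, 44.6% in SP1 and 39.1% in SP3, beside a median of 49.3% over the genes. Results for the 4 genes and the gene lists are therefore also given with an offset for GC content and transcript length fitted library by library. Those for the 4 genes and some of the lists are given without these 3 libraries as well. A fit without 3D replicates 1 and 2 keeps 1 3D library, which is then assumed to vary like the other groups, so its p-values have no 3D spread behind them.

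In GENCODE 29, IL4I1 (ENSG00000104951.15) and NUP62 (ENSG00000213024.11) lie on the minus strand of chromosome 19. Of the 8 annotated IL4I1 transcripts, 6 start inside a NUP62 exon, between 224 and 347 bases downstream of the outermost NUP62 start. The other two start 32808 and 32895 bases downstream of it, close to the coding exons of IL4I1. The genes share 336 exonic bases, which are 13.1% of the 2563 exonic bases of IL4I1 and 5.58% of the 6020 of NUP62, and 0 coding bases. ATF5, a stress-induced transcription factor on the opposite strand, overlaps 626 exonic bases of NUP62 and 75 of IL4I1. No strand-marking step is described in the library protocol, and the counting rule is not given in the sources used here, so how reads in the shared bases were assigned is uncertain for all 3 genes.

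**Figure D1:**
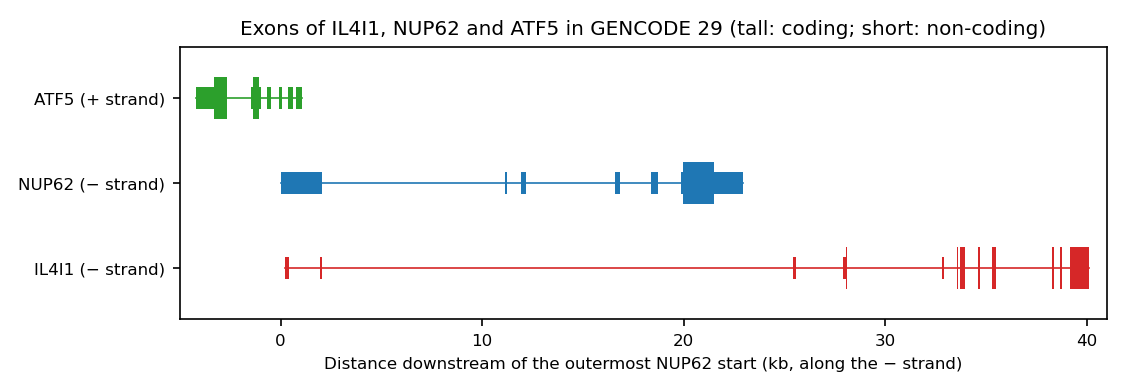
Exons of ATF5, NUP62 and IL4I1 along the locus, with the distance in kb downstream of the outermost NUP62 start on the horizontal axis, coding parts drawn tall and non-coding parts short. The first IL4I1 exons lie within the first NUP62 exons, whereas the coding exons of IL4I1 lie beyond the last NUP62 exon.

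The promoter windows in RefSeq on build GRCh38.p14, 250 bases before to 50 after the start, are shown because IL4I1 and NUP62 have the same one. That window, chr19:49929455-49929754 on the minus strand, has a GC content of 63.0% and holds 0 copies of the GC box GGGCGG on either strand. It has 1 copy of GCGTG, the core of the element that AHR binds, searched on both strands and marked in capitals below, a motif found in 36.5% of the 34941 windows of the reference set. The windows at chr12:53379926-53380225 on the plus strand for SP1 and chr2:173965324-173965623 on the minus strand for SP3 carry 4 and 2 GC boxes, in capitals on either strand, a motif found in 44.9% of windows. A second SP1 window carries 10, and GC boxes were counted on both strands with overlaps allowed. The heat shock element GAANNTTC has 0 matches in the windows of the 4 genes and is found in 6.79% of all windows. A match describes these letters in these windows and is not evidence of binding, nor is its lack evidence against it.
IL4I1 and NUP62: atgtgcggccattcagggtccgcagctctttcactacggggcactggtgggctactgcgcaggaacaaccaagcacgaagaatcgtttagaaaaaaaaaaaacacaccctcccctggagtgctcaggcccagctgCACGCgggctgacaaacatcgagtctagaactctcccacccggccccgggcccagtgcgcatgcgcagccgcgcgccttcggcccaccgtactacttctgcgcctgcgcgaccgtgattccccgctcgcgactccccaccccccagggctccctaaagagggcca
SP1: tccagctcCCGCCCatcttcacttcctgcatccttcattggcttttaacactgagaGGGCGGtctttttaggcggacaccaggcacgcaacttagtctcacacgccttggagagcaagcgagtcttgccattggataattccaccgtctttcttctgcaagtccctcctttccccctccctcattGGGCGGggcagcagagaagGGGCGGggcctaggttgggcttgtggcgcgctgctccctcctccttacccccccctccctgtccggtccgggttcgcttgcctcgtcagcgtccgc
SP3: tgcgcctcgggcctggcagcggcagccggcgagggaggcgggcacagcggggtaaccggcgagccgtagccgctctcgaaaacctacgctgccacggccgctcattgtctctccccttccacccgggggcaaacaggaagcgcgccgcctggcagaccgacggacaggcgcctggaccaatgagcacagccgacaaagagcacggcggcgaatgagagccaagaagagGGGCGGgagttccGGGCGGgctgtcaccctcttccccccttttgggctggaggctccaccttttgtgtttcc

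IL4I1 was the member whose level differed most between groups, and its counts were small. It had 41, 23 and 31 reads in the animal libraries, 119, 260 and 90 in 3D, and 5, 11 and 7 in 2D. In experiment 2 it had 125, 264 and 136 reads with heat and 16, 16 and 19 in the untreated controls. Every 3D and heat library thus had at least 90 IL4I1 reads and every library of the remaining groups at most 41.

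On 1 scale for all 15 libraries, in CPM (reads relative to the library total, with TMM scaling), IL4I1 measured 2.47, 1.57 and 1.86 CPM in the animal libraries, 9.23, 18.9 and 5.53 in 3D and 0.266, 0.580 and 0.374 in 2D. It measured 11.9, 12.8 and 7.76 CPM with heat and 0.913, 0.907 and 1.10 in the controls. The 3 groups of experiment 1 did not overlap, nor did heat and control; of all genes tested, the groups did not overlap for 50.1% in 3D against 2D, 66.5% in animal against 2D, 50.2% in animal against 3D and 36.6% with heat. The spread was widest in 3D, where replicate 2 was highest and replicate 3, the 3D library without the GC trend, was lowest but still above every animal and 2D library. Fold changes below come from edgeR quasi-likelihood fits to each experiment alone, with p-values adjusted by Benjamini-Hochberg over all genes tested, and a gene is called at an adjusted p under 0.05.

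Between 3D and 2D, 1 of the 4 genes was called, against a background of 32.9% of the 12925 genes tested, 20.0% higher and 12.9% lower. It was IL4I1, with a log2 fold change of 4.71 ± 0.544 (SE), or 26.1-fold, a 95% interval of 3.48 to 5.94 and an adjusted p of 0.00116 in edgeR. With 3D replicate 3 as the one 3D library the log2 fold change was 3.73 (adjusted p = 0.000404), and with the GC and length offset it was 3.68 (adjusted p = 0.000285), about a log2 unit smaller in both cases. IL4I1 was called under each of the 16 alternatives of this comparison, of which the one with a lone 3D library rests on the assumption above.

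Between animal and 2D libraries IL4I1 was again the 1 called member, against 12.0% of all genes tested, 7.78% higher and 4.25% lower. Its log2 fold change was 2.25 ± 0.527 (SE; adjusted p = 0.0252 in edgeR). The call rests on few reads: it ended on leaving out 2D replicate 1, 2 or 3 or animal replicate 1 or 3, with adjusted p-values of 0.0588 to 0.113, while the direction stayed. Markers of other cell types also moved in the animal model. Of 7 tested fibroblast and endothelial markers, 6 were higher and 0 lower than in 2D, among them the collagen gene COL1A1 at 141 ± 94.2 CPM in the animal libraries against 4.08 ± 0.156 CPM in 2D (SD, n = 3 each; adjusted p = 0.000905 in edgeR). These markers summed to 178 to 466 CPM in the animal libraries, 16.8 to 113 in 3D and 65.8 to 70.3 in 2D. PLVAP was at 0 in each animal and 3D library. The liver markers summed to 3197 to 3310 CPM in the animal libraries, where the keratin KRT8 alone averaged 2184 CPM. The part of other cell types in the animal IL4I1 level was not tested.

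Between animal and 3D libraries IL4I1 was lower in the animal model, with a log2 fold change of -2.46 ± 0.474 (SE; adjusted p = 0.00481 in edgeR), the 1 member called against 41.5% of all genes, 18.6% higher and 22.9% lower. The difference was -1.50 with 3D replicate 3 as the lone 3D library (adjusted p = 0.0161) and -1.42 with the offset (adjusted p = 0.00585).

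With heat, 0 of the 4 genes were called in edgeR at an adjusted p under 0.05, 2 had an unadjusted p under 0.05 and DESeq2 called 1. The background was 0.0238% of the 12627 genes tested, 0.00792% higher and 0.0158% lower. IL4I1 had a log2 fold change of 3.47 ± 0.349 (SE), or 11.1-fold, with a 95% interval of 2.65 to 4.30 and an adjusted p of 0.0604 in edgeR. By p-value it ranked 4 among all genes tested, directly behind the 3 that were called. Over the alternatives its log2 fold change stayed between 3.25 and 3.67, and its adjusted p ran from 2.53e-13 in DESeq2 to 0.461 on leaving out control replicate 1. It was called in 6 of 14 alternatives, in which more of all genes were called as well. Without heat replicate 1 its log2 fold change was 3.40 (adjusted p = 0.00437), with 14% of all genes higher and 14.8% lower. With the GC and length offset it was 3.25 (adjusted p = 0.0121), with 5.57% and 5.65%. In the fit to all 15 libraries it was 3.46 (adjusted p = 0.00242), with 6.52% and 4.91%. DESeq2 called 6.54% of all genes higher and 4.62% lower.

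The heat libraries differed far more in a heat marker than in IL4I1. HSPA1A, the inducible HSP70 chaperone, measured 24459, 1306 and 15594 CPM in heat replicates 1, 2 and 3, against 344, 352 and 366 CPM in the controls. Heat replicate 2, lowest in HSPA1A, was highest in IL4I1. All 6 genes of a heat response list were higher with heat at an unadjusted p under 0.05, and 0 were called at an adjusted p under 0.05 in edgeR.

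**Figure D2:**
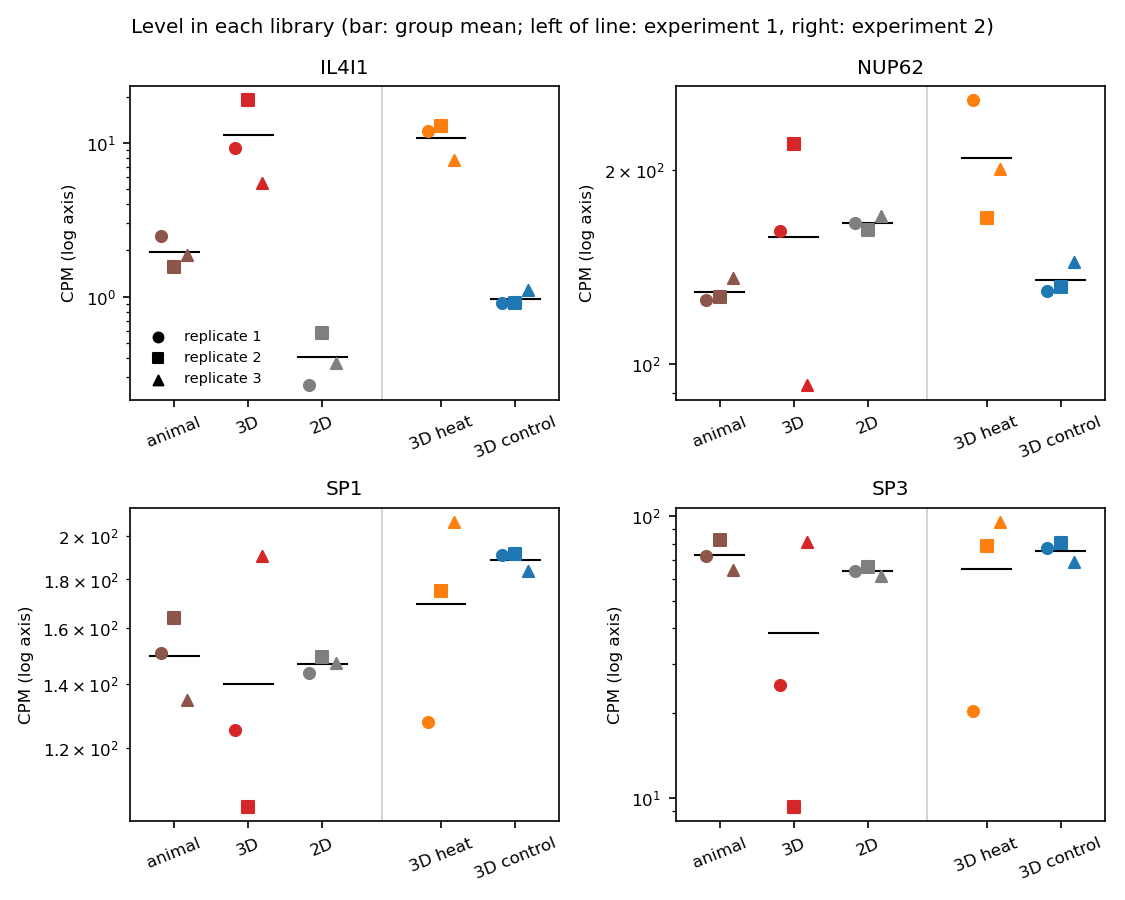
Level of IL4I1, NUP62, SP1 and SP3 in each library in CPM on a log axis, with symbols for replicates and a bar for the mean of each group of 3; experiment 1 is left of the grey line and experiment 2 right of it. IL4I1 separates 3D and heat from the other groups, SP3 drops in 3D replicates 1 and 2 and heat replicate 1, and NUP62 is highest in heat replicate 1 and 3D replicate 2.

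In a fit to all 15 libraries IL4I1 was called in 7 of the 10 pairs of groups, in 9 without the 3 libraries with a GC trend and in 8 with the offset over 15 libraries. Of the 13227 genes, 28.1% were called in 3D against 2D, 11.4% in animal against 2D, 38.5% in animal against 3D and 11.4% in heat against control. Between experiments, 0.937% of genes were called in 3D control against 2D, 14.8% in heat against 2D, 23.3% in heat against 3D, 2.54% in 3D against 3D control, 12.4% in animal against 3D control and 23.6% in animal against heat. From high to low the mean levels were 11.2 ± 6.91 CPM in 3D, 10.8 ± 2.69 with heat, 1.96 ± 0.459 in the animal model, 0.974 ± 0.111 in 3D control and 0.407 ± 0.160 in 2D (SD, n = 3 each). The order of heat and 3D turned with the GC offset, under which the means were 10.2 ± 3.63 CPM with heat and 6.62 ± 2.05 CPM in 3D (SD, n = 3 each). Neighbours in this order that were not called in edgeR were heat and 3D (log2 fold change -0.05, 95% interval -0.91 to 0.81, adjusted p = 0.939), animal and 3D control (1.01, 0.05 to 1.97, adjusted p = 0.173) and 3D control and 2D (1.24, 0.19 to 2.29, adjusted p = 0.352). Without the 3 libraries with a GC trend, the difference was 0.89 for heat and 3D (adjusted p = 0.105), 0.995 for animal and 3D control (adjusted p = 0.0232) and 1.24 for 3D control and 2D (adjusted p = 0.0348), so the last 2 pairs were called there. With the offset over 15 libraries it was 0.59 (adjusted p = 0.147), 1.20 (adjusted p = 0.0238) and 1.04 (adjusted p = 0.166). More genes were called in these fits as well: for animal against 3D control 47.8% of all genes without the 3 libraries and 24.3% with the offset, and for 3D control against 2D 23.0% and 3.30%.

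The untreated 3D cells of the 2 experiments are both labelled as 3D cells of the same line, yet IL4I1 was higher in 3D than in 3D control by 3.52 on the log2 scale (adjusted p = 0.00629). It was higher by 2.48 without 3D replicates 1 and 2 and heat replicate 1 (adjusted p = 0.00364) and by 2.65 with the offset over 15 libraries (adjusted p = 0.00487). Between experiments, group and sequencing round cannot be told apart.

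IL4I1 was also set against NUP62 within each library, a share in which library size cancels. The share depends on NUP62 as well, and group and sequencing round remain tied in it. IL4I1 made up 1.93%, 1.22% and 1.35% of the reads of both genes in the animal libraries, 5.43%, 7.95% and 5.63% in 3D and 0.161%, 0.359% and 0.220% in 2D. It made up 4.45%, 7.07% and 3.73% with heat and 0.699%, 0.686% and 0.759% in the controls. The groups did not overlap in any of the 4 comparisons, and the exact two-sided permutation p was 0.1 in each, the smallest that 3 against 3 allow. Exact Clopper-Pearson 95% intervals, which cover counting error only, ran from 4.55% to 6.88% in 3D replicate 3 and from 0.179% to 0.641% in 2D replicate 2, the highest 2D library.

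**Figure D3:**
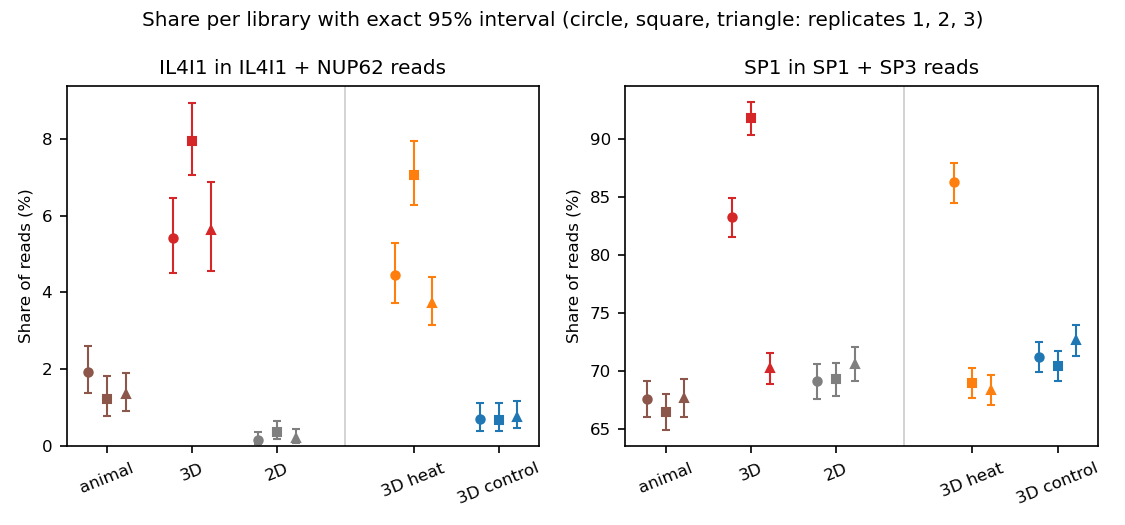
Share of reads per library in percent, with exact 95% intervals: IL4I1 in the reads of IL4I1 and NUP62 on the left, SP1 in the reads of SP1 and SP3 on the right. The IL4I1 share lies between 3.73% and 7.95% in 3D and heat libraries and at or below 1.93% elsewhere, while the SP1 share stands apart in 3D replicates 1 and 2 and heat replicate 1.

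NUP62 was called in none of the 4 comparisons in edgeR; 1 had an unadjusted p under 0.05, and DESeq2 called 0. It measured 125, 127 and 136 CPM in the animal libraries, 161, 219 and 92.6 in 3D and 165, 161 and 170 in 2D. With heat it measured 256, 168 and 200 CPM, against 130, 131 and 144 in the controls. The 3D libraries spanned the range of the other groups of experiment 1. Every heat library lay above every control, and 36.6% of all genes tested did not overlap there. Every animal library lay below every 2D library (log2 fold change -0.35, adjusted p = 0.457 in edgeR), where 66.5% of all genes did not overlap. That fit shares its estimate of spread with the 3D libraries. In a fit to the animal and 2D libraries alone NUP62 was called (adjusted p = 0.00222 in edgeR), as were 29.5% of all genes higher and 27.9% lower. Per kb of exon, NUP62 averaged 26.2 CPM in 3D and 27.5 in 2D and IL4I1 averaged 4.38 and 0.159, so NUP62 was the more abundant gene in both groups.

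The values of NUP62 differed with and without the 3 libraries with a GC trend. Its log2 fold change between 3D and 2D was -0.12 ± 0.265 (SE, adjusted p = 0.746 in edgeR), but -0.84 with 3D replicate 3 as the lone 3D library. With the offset it was -0.78 (adjusted p = 0.00349), in a fit that called 15.9% of all genes higher and 16.7% lower. Between animal and 3D libraries it was -0.24 (adjusted p = 0.475) and turned to 0.47 with the lone 3D library. With the offset it was 0.43 there (adjusted p = 0.0348), where 17.8% of all genes were called higher and 24.6% lower. With heat it was 0.63 ± 0.260 (SE, adjusted p = 0.233, unadjusted p = 0.0453 in edgeR). It was 0.45 without heat replicate 1 (adjusted p = 0.0425), the 1 of 14 alternatives in which NUP62 was called. That fit called 14% of all genes higher and 14.8% lower. With the offset the heat difference was 0.53 (adjusted p = 0.0802).

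IL4I1 moved far more than NUP62 in each comparison. In 3D against 2D, the NUP62 log2 fold change without the GC-trend libraries was of opposite sign to that of IL4I1. In heat against control both were positive, at 0.45 for NUP62 and 3.40 for IL4I1 without heat replicate 1. ATF5 on the other strand measured 59.6, 75.6 and 91.4 CPM in animal libraries, 187, 183 and 85.9 in 3D and 89.1, 90.3 and 86.7 in 2D. With heat ATF5 measured 158, 63.1 and 52.5 CPM, against 88.6, 78.1 and 86.3 in the controls. Its highest values lay in the libraries with a GC trend, and heat replicates 2 and 3 lay below every control. In edgeR its adjusted p was 0.0827 in 3D against 2D, 0.685 in animal against 2D, 0.0287 in animal against 3D and 0.897 with heat.

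SP1, the factor named in the series title, was called in none of the 4 comparisons in edgeR, with 0 at an unadjusted p under 0.05 and 0 called by DESeq2. It measured 151, 164 and 135 CPM in the animal libraries, 125, 104 and 190 in 3D and 144, 149 and 147 in 2D. With heat it measured 128, 175 and 207 CPM, against 191, 191 and 184 in the controls. The libraries with a GC trend were the low ones in 3D and in heat, while 3D replicate 3 lay above every 2D library and heat replicates 2 and 3 lay on either side of the controls.

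The SP1 log2 fold change was -0.10 (95% interval -0.65 to 0.45, adjusted p = 0.773 in edgeR) in 3D against 2D and 0.03 (-0.52 to 0.58, adjusted p = 0.957) in animal against 2D. It was 0.13 (-0.42 to 0.68, adjusted p = 0.679) in animal against 3D and -0.14 (-0.78 to 0.49, adjusted p = 0.779) with heat. Intervals of this width do not show that SP1 was equal between groups. The sign in 3D against 2D turned, to 0.37 with the lone 3D library and to 0.58 with the offset (adjusted p = 0.00614). In animal against 3D it turned as well, to -0.36 with the lone 3D library and -0.58 with the offset (adjusted p = 0.00420). The offset fits called 15.9% of all genes higher and 16.7% lower in 3D against 2D, and 17.8% and 24.6% in animal against 3D. With heat the log2 fold change was 0.10 with the offset (adjusted p = 0.693).

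**Figure D4:**
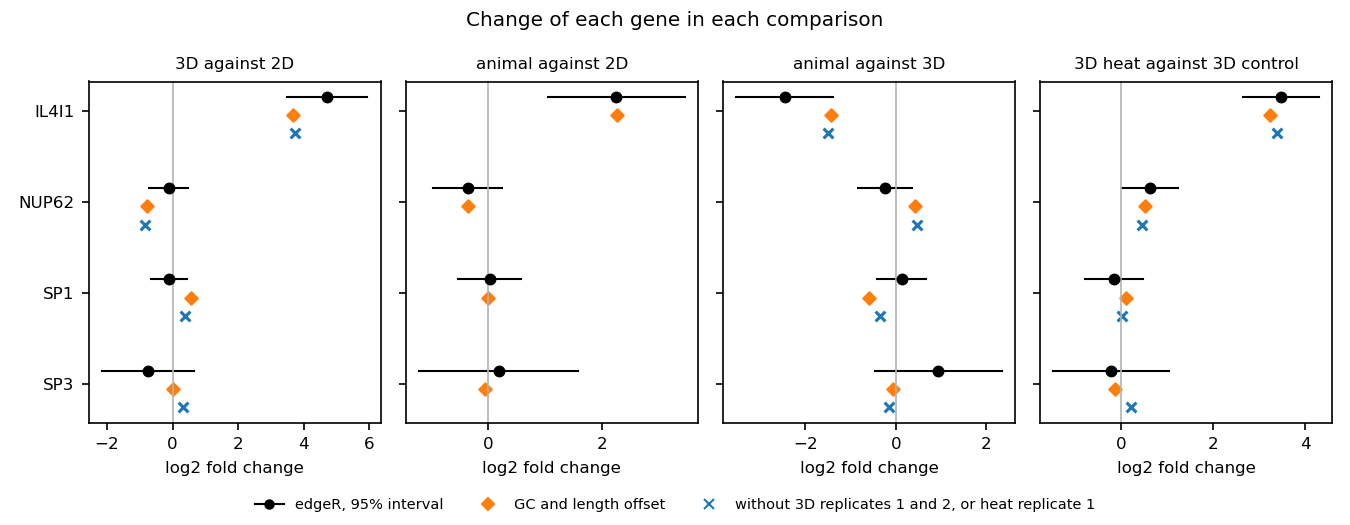
Log2 fold change of each gene in the 4 comparisons: black circles with 95% intervals are the edgeR fits, orange diamonds the GC and length offset and blue crosses the fits without 3D replicates 1 and 2 or lacking heat replicate 1 (no cross for animal against 2D). IL4I1 keeps its sign under each setting, whereas NUP62 and SP1 change sign or call in the comparisons with 3D.

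SP3 was called in 0 of the 4 comparisons in edgeR, with an adjusted p of 0.366 in 3D against 2D, 0 at an unadjusted p under 0.05 and 0 called by DESeq2. It measured 72.2, 82.5 and 64.3 CPM in the animal libraries, 25.2, 9.31 and 80.7 in 3D and 64.2, 66.2 and 61.2 in 2D. With heat it measured 20.4, 78.7 and 95.6 CPM, against 77.1, 80.3 and 69.1 in the controls. The values of 3D replicates 1 and 2 and heat replicate 1 lay at or below 25.2 CPM, and the other 12 libraries between 61.2 and 95.6. Without 3D replicates 1 and 2 the log2 fold change in 3D against 2D was 0.33 (adjusted p = 0.0760), while it was -0.74 with them, and with the offset it was 0.03 (adjusted p = 0.929).

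The share of SP1 in the reads of SP1 and SP3 showed the same libraries apart. It was 67.6%, 66.5% and 67.7% in the animal libraries, 83.2%, 91.8% and 70.2% in 3D and 69.1%, 69.3% and 70.6% in 2D. With heat it was 86.3%, 69.0% and 68.4%, against 71.2%, 70.5% and 72.7% in the controls. The exact permutation p was 0.2 for 3D against 2D and 1 for heat against control, where the groups overlap. It was 0.1 for animal against 2D and for animal against 3D, where they do not.

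The SP family list had 5 tested genes. In edgeR 0 were called in heat against control, in 3D against 2D and in animal against 2D, while 1 had an unadjusted p under 0.05 in 3D against 2D; DESeq2 called 1 in 3D against 2D and 0 in the other two. SP2 was lower in animal libraries, at 36.5 to 43.7 CPM, than in 3D, at 40.1 to 85.2 CPM (adjusted p = 0.0476 in edgeR), with overlapping ranges; this call was lost without 3D replicates 1 and 2 (-0.05, adjusted p = 0.773) and with the offset (-0.27, adjusted p = 0.211). Of 26 genes reported as SP1 targets, 8 were higher and 6 lower in 3D than in 2D, against 20.0% and 12.9% of all genes. Their median log2 fold change was 0.00 beside 0.03 over all genes tested. With the offset 5 were higher and 9 lower, against 15.9% and 16.7% of all genes. In animal against 2D 0 were higher and 3 lower (1 and 11 at an unadjusted p under 0.05), against 7.78% and 4.25%. In animal against 3D 3 were higher and 11 lower, against 18.6% and 22.9%. With the offset the counts there were 5 and 11, against 17.8% and 24.6%. With heat 0 were higher and 1 lower (0 and 7 at an unadjusted p under 0.05), against 0.00792% and 0.0158%. Without heat replicate 1 the counts were 0 and 11, against 14% and 14.8%, and with the offset 0 and 4, against 5.57% and 5.65%. The genes of this list were chosen with earlier results of these data known.

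NUP62 was set beside the other nucleoporins, the proteins that build the nuclear pore. Of 32 tested nucleoporins, NUP62 among them, 1 was higher and 17 lower in 3D than in 2D, against 20.0% and 12.9% of all genes. Their median log2 fold change was -0.94 beside 0.03 over all genes tested. The outer ring, which forms the scaffold of the pore, had 7 of 9 members lower, among them NUP160 at 28.9 ± 2.97 CPM in 3D against 73.3 ± 1.76 in 2D. The NUP160 difference was -1.18 without 3D replicates 1 and 2 (adjusted p = 0.000172) and was not called with the offset (-0.53, adjusted p = 0.0893). For the 32 nucleoporins the median was -0.78 without 3D replicates 1 and 2. With the offset 14 were lower, against 16.7% of all genes, and the median was -0.48. In the animal libraries 16 were higher and 3 lower than in 3D, against 18.6% and 22.9% of all genes. With the offset 9 were higher and 3 lower there, against 17.8% and 24.6%. Against 2D, 0 were higher and 2 lower (1 and 5 at an unadjusted p under 0.05), beside 7.78% and 4.25% of all genes. With heat 0 of 32 were called in edgeR, and 3 were higher and 1 lower at an unadjusted p under 0.05. DESeq2 called 2 higher and 1 lower, against 6.54% and 4.62% of all genes.

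The 10 annotated genes on each side of IL4I1 were read in the same way. Of 16 tested, 8 were higher and 1 lower in 3D than in 2D, against 20.0% and 12.9% of all genes. Their median log2 fold change was 1.04. The nearest on the side away from NUP62 was TBC1D17, a GTPase-activating protein for Rab. It averaged 143 ± 52.4 CPM in 3D and 31.4 ± 2.37 in 2D (SD, n = 3 each, adjusted p = 0.00145 in edgeR). The TBC1D17 difference was 1.47 without 3D replicates 1 and 2 (adjusted p = 9.78e-05) and 1.10 with the offset (adjusted p = 0.000338). With 3D replicate 3 alone, the median of the flanking genes was 0.13. With the offset 3 were higher and 2 lower, against 15.9% and 16.7% of all genes, and the median was 0.04. With heat 0 of 16 were called in edgeR, and 4 were higher at an unadjusted p under 0.05. DESeq2 called 2 higher, against 6.54% of all genes. In heat against control TBC1D17 averaged 66.8 ± 32.4 CPM and 51.4 ± 0.902 CPM (SD, n = 3 each).

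**Figure D5:**
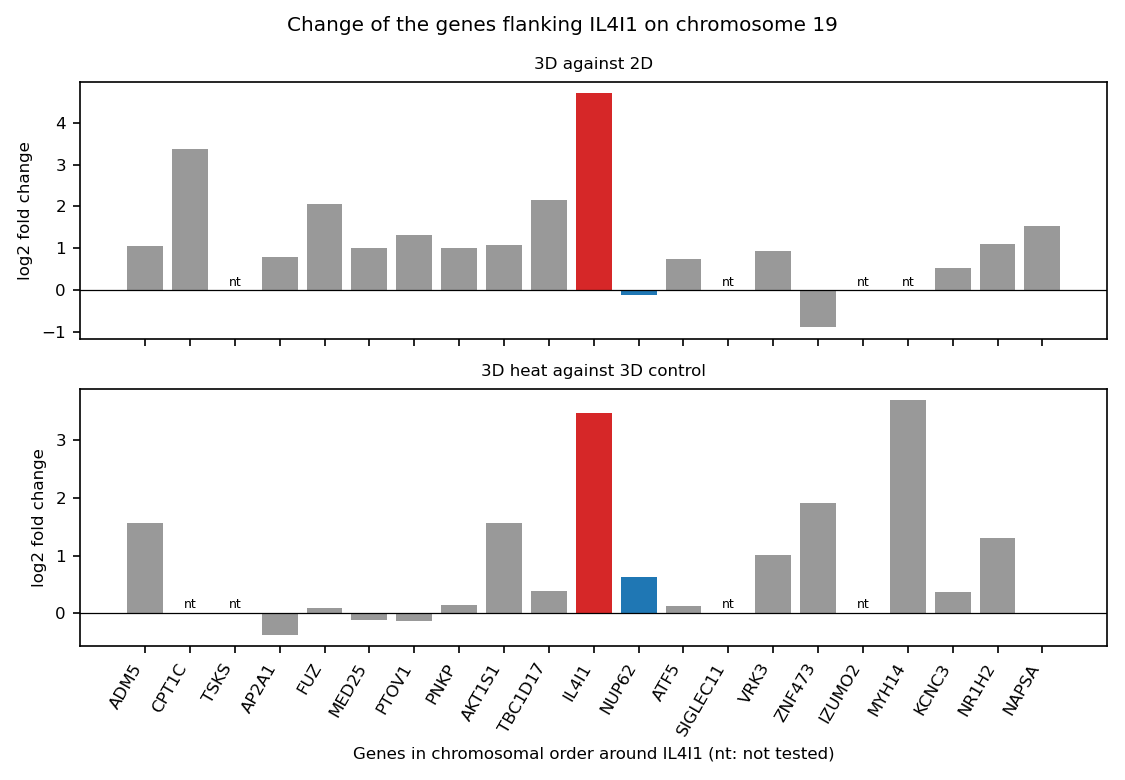
Log2 fold change of the 10 genes on each side of IL4I1, in chromosomal order, for 3D against 2D above and heat against control below, with IL4I1 in red and NUP62 in blue (nt: not tested). IL4I1, at 4.71 in 3D against 2D, stands above its flanking genes there, and in heat MYH14 has a bar of similar height to that of IL4I1.

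Genes of the signals that induce IL4I1 in immune cells, namely the IL-4, interferon and NF-kB pathways, were counted next. Of 18 tested, 9 were higher and 0 lower in 3D than in 2D, against 20.0% and 12.9% of all genes. At an unadjusted p under 0.05, 10 were higher and 0 lower, and DESeq2 called 9 and 0. Among them IL2RG, the common cytokine receptor chain, averaged 184 ± 57.8 CPM in 3D and 19.5 ± 0.946 in 2D (SD, n = 3 each; adjusted p = 0.000642), and JAK3, the kinase bound to it, 18.7 ± 0.502 and 4.87 ± 0.201 (adjusted p = 0.00107). With the offset 8 were higher and 1 lower, against 15.9% and 16.7% of all genes. IL2RG was then higher by 2.72 on the log2 scale and JAK3 by 1.48, and both were called. Without 3D replicates 1 and 2 IL2RG was higher by 2.66 and JAK3 by 1.90. With heat 0 of 18 were called in edgeR, although 8 were higher and 1 lower at an unadjusted p under 0.05. DESeq2 called 4 higher and 1 lower, against 6.54% and 4.62% of all genes. Without heat replicate 1, 6 were higher and 1 lower, against 14% and 14.8%, and with the offset 3 and 1, against 5.57% and 5.65%.

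AHR itself was lower in the 3D libraries, which averaged 40.7 ± 26.8 CPM, against 112 ± 6.63 CPM in 2D (SD, n = 3 each; adjusted p = 0.0290 in edgeR), and CYP1A1, a classical AHR target, was higher in them, with 16.7 ± 9.36 CPM against 2.13 ± 0.674 CPM (adjusted p = 0.00292). Of the 8 tested genes of the AHR axis 2 were higher and 1, AHR, was lower, against 20.0% and 12.9% of all genes. With the offset 4 were higher, against 15.9%, and the call of AHR was lost (-0.33, adjusted p = 0.208). CYP1A1 was higher by 2.59 on the log2 scale with the offset and by 2.76 without 3D replicates 1 and 2. It was instead lower with heat, at 3.92 ± 2.85 CPM against 16.0 ± 1.47 in the controls (SD, n = 3 each). It was lower too in animal libraries, at 0.0628 ± 0.00460 CPM, than in 2D. In animal against 2D 0 genes of the axis were higher and 2 lower, against 7.78% and 4.25% of all genes. In animal against 3D 1 was higher and 6 lower, against 18.6% and 22.9%, and with heat 0 were called.

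Of the remaining amino acid and amine oxidases, which share the flavin chemistry of IL4I1, MAOA was called with heat. MAOA, which oxidises serotonin and noradrenaline, averaged 27.3 CPM in heat libraries against 153 in the controls (adjusted p = 0.0489 in edgeR). Its log2 fold change was -2.50 without heat replicate 1 (adjusted p = 0.00173) and -2.29 with the offset (adjusted p = 0.00947). The call was lost with median-ratio scaling (adjusted p = 0.0580), without a filter (0.0565) and on leaving out heat replicate 3 or any 1 control (0.165 to 0.461), with the direction kept. In 3D against 2D, 3 of 10 tested oxidases were higher, IL4I1 among them, and 1 was lower, against 20.0% and 12.9% of all genes. With the offset 2 were higher and none lower, against 15.9% and 16.7%.

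Because IL4I1 is made by immune cells, markers of macrophages and other leukocytes were summed. In CPM the sums ran from 169 to 223 in the animal libraries, 391 to 497 in 3D and 104 to 110 in 2D. They ran from 248 to 529 with heat and 229 to 247 in the controls, and their part in the IL4I1 differences was not tested. Of the 8 tested, 5 were higher and 0 lower in 3D than in 2D, against 20.0% and 12.9% of all genes. With the offset 4 were higher, against 15.9% of all genes. The largest part of the sum was CD68, a lysosomal protein also made by other cells, at 436 ± 53.8 CPM in 3D against 100 ± 2.83 CPM in 2D (SD, n = 3 each, as for the next 4 genes; adjusted p = 0.000928 in edgeR). The integrin chain ITGAM measured 10.6 ± 1.88 CPM in 3D against 3.40 ± 0.629 CPM in 2D (adjusted p = 0.00295). Its relative ITGAX measured 2.46 ± 0.182 CPM in 3D and 0.655 ± 0.0773 CPM in 2D (adjusted p = 0.00281). CD74, the invariant chain of class II molecules, had 6.51 ± 3.08 CPM in 3D and 1.61 ± 0.3297 CPM in 2D (adjusted p = 0.00686). The last of the 5, the macrophage factor SPI1, was near 0 in both groups, with 0.165 ± 0.0485 CPM in 3D against 0.0176 ± 0.0305 CPM in 2D (adjusted p = 0.0398). The call of SPI1 was lost without 3D replicates 1 and 2 (adjusted p = 0.173) and with the offset (adjusted p = 0.284). The other 3 tested markers were not called. PTPRC averaged 0.318 ± 0.423 CPM in 3D and 0.301 ± 0.216 CPM in 2D (SD, n = 3 each, adjusted p = 0.931 in edgeR). CD163 was lower in 3D, at 0.267 ± 0.248 CPM against 0.761 ± 0.129 CPM in 2D (adjusted p = 0.140 in edgeR). LYZ averaged 0.0463 ± 0.0409 CPM in 3D and 0.0354 ± 0.0306 CPM in 2D. FCER1G and AIF1 were at 0 in each 3D library. With heat 0 of 5 tested were called in edgeR, and 3 were higher at an unadjusted p under 0.05. DESeq2 called 5 higher, against 6.54% of all genes. Without heat replicate 1, 3 were higher, against 14% of all genes, and with the offset 2, against 5.57%. In the animal libraries 5 of the 8 were higher than in 2D and 0 lower, against 7.78% and 4.25% of all genes. SPI1 averaged 2.44 ± 0.566 CPM there and LYZ 5.77 ± 3.36. Among B cell markers MS4A1 was at 0 in every library of the 5 groups. The liver markers of the cell line summed to 3129 to 10382 CPM in 3D and 3773 to 3912 in 2D. The largest parts were the keratins KRT8 and KRT18, averaging 5701 and 1391 CPM in 3D and 3008 and 696 in 2D. ALB averaged 2.71 CPM in 3D and 2.36 in 2D, and AFP 1.49 and 2.00, so the sum says little of these. In bulk libraries it is not possible to tell fewer cells of a type from less RNA per cell.

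By Pearson r over the 15 libraries on log2(CPM + 1), the genes most like IL4I1 were USP20, PLA2G4C, AC073111.4, RNF122 and FRS3, with r from 0.936 to 0.962. USP20, a deubiquitinase, averaged 21.1 ± 3.43 CPM in the animal libraries, 38.3 ± 15.5 in 3D and 17.6 ± 0.370 in 2D, and 37.3 ± 2.90 with heat against 21.1 ± 0.661 in the controls. In the 12 libraries without a GC trend their r with IL4I1 was 0.920 to 0.953. For NUP62 the nearest were NF2, SHPK, UBAP2, GATA4 and AMBRA1 and for SP1 ZNF827, RCOR3, SERINC1, PLAG1 and OSBPL1A. For SP3 they were PLEKHA5, FAM214A, PTPN12, CD2AP and PKN2, with r of 0.989 to 0.993 over 15 libraries and 0.653 to 0.832 over 12. A high r with SP3 was common, as 1249 of the 13227 genes had an r over 0.9 with it over 15 libraries.

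Among the members themselves, IL4I1 and NUP62 had an r of 0.448 over 15 libraries and 0.0108 over 12. SP1 and SP3 had 0.847 and 0.821. Over 15 libraries SP1 ranked 1969 among the genes most like SP3, and SP3 ranked 231 among those most like SP1. IL4I1 had -0.31 with SP1 over 15 libraries and 0.461 over 12, and -0.59 and 0.663 with SP3, so the sign of both turned on the 3 libraries with a GC trend. These points share libraries and groups and are given as a description.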

How the data were processed

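Read counts were deposited by the authors as 1 table of whole-number, unnormalized counts per gene symbol, 1 column per library. The submitters' processing notes name HISAT2 and hg19 but no versions; how reads were counted, the annotation, strand setting and any host-read removal are not given in the sources used here. Per the labels' protocols, mRNA was primed with random hexamers and read single-end by DNA nanoball sequencing. Of 19143 rows, 1443 hold 0 in every library, and 27 with a date in place of a symbol hold 0.168% of counts.

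Counts were fitted in R 4.3.3 with edgeR 4.0.16 (filterByExpr, TMM, robust quasi-likelihood, group as the one term) to the 9 libraries of experiment 1 and, apart from them, the 6 of experiment 2; DESeq2 1.42.0 was an alternative. Levels are CPM over 15 libraries. The offset used splines with 5 degrees of freedom on GC content and length of the longest coding GENCODE 29 transcript, matched for 99.1% of genes; its use over 15 libraries and for lists, and the lists and group order without the libraries with a GC trend, were added after the data were seen. Promoter windows came from RefSeq on GRCh38.p14. Of 205 list entries 203 matched a row; SP7 and NUP42 are not analysed here. The members and lists were chosen with earlier results of these data known. Named genes are the 4 members, the 5 most like each, the nearest genes to IL4I1 and up to 4 called genes per list. HSPA1A, MYH14, CYP1A1, LYZ, the macrophage markers, the named liver markers and COL1A1 were singled out after their values were seen. The edgeR fit was also run on simulated counts. These had no GC trend and the same spread in every group, so the run does not cover those features of the data.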

Additional observations from a re-analysis of the deposited data

How the results depend on the processing

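The 3D against 2D and animal against 3D differences of IL4I1 stayed called under every alternative run, and IL4I1 kept its sign in all 4 comparisons. The heat difference of IL4I1 passed at 3.44 with the replicate block (adjusted p = 0.0445 in edgeR), 3.46 with 15 libraries in 1 fit, 3.25 with the GC and length offset and 3.49 in DESeq2; over the fits that left out 1 library it ran from 3.32 to 3.67, and the animal against 2D difference from 2.02 to 2.58. The cause was not tested.

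With the GC and length offset, NUP62 was -0.78 in 3D against 2D and 0.43 in animal against 3D; SP1 was 0.58, -0.0038 in animal against 2D, -0.58 in animal against 3D and 0.10 with heat; SP3 was 0.028, -0.044 and -0.071. Without 3D replicates 1 and 2, NUP62 was -0.84 and 0.47, SP1 0.37 and -0.36, and SP3 0.33 and -0.16, and the SP1 share differed by 0.552 and -2.95 percentage points. SP1 was -0.0031 in animal against 2D in DESeq2. NUP62 was -0.35 there with the 2 groups alone (adjusted p = 0.00222 in edgeR), in a fit that called 29.5% of all genes higher and 27.9% lower. Leaving out 1 library at a time, NUP62 ran from -0.42 to 0.14 in 3D against 2D, from -0.49 to 0.056 in animal against 3D and from 0.45 to 0.75 with heat; SP1 from -0.42 to 0.087, -0.043 to 0.097, -0.062 to 0.44 and -0.31 to 0.019; and SP3 from -1.95 to -0.28, 0.092 to 0.27, 0.47 to 2.14 and -0.60 to 0.21. The shares ran from 5.28 to 6.54, 1.04 to 1.39, -5.29 to -4.03 and 3.38 to 5.05 for IL4I1 and from 7.06 to 17.8, -2.67 to -1.92, -20.2 to -9.45 and -2.78 to 6.16 for SP1. Pairs called without the 3 libraries with a GC trend numbered 9 for IL4I1, 8 for NUP62, 6 for SP1 and 1 for SP3, in a fit that called 11.3% to 51.2% of all genes in a pair. With the offset they were 8 for IL4I1, 4 for NUP62 and 4 for SP1, with 3.30% to 37.8% of all genes called. In the fits without 3D replicates 1 and 2 the spread of the lone 3D library is taken from the other groups.

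Over all genes, leaving out 1 library gave 1132 to 4560 higher and 663 to 4933 lower in 3D against 2D, 446 to 768 and 199 to 386 in animal against 2D, 1377 to 5596 and 1943 to 4536 in animal against 3D, and 0 to 1795 and 0 to 1896 with heat. The counts of 0 came from edgeR without heat replicate 3 or any 1 control, where 710 to 1575 genes were higher and 605 to 1091 lower at an unadjusted p under 0.05. With heat, 1 gene was higher and 2 lower; the counts were 22 and 8 with the replicate block, 862 and 649 with 15 libraries in 1 fit, 697 and 707 with the offset and 918 and 649 in DESeq2, with 0 lower under median-ratio scaling (1095 at an unadjusted p under 0.05) and 1 lower without a filter. In animal against 2D the counts were 322 lower with the block, 1607 and 2531 with the offset, 3751 and 3538 with the 2 groups alone and 982 lower in DESeq2. With the 2 groups alone they were 1695 and 798 in 3D against 2D and 996 and 1750 in animal against 3D, and 3205 were lower in 3D against 2D without 3D replicates 1 and 2. Same-numbered replicates did not vary together (correlations -0.27 to 0.214), so the block has no basis in the pairing.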
